A study of Mus musculus with 6 samples.

Results

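The 10 loci described here hold genes of the megakaryocyte and platelet lineage, and their chromatin was measured in HSCs, the haematopoietic stem cells of the marrow, of mice. The genes are Nfe2, Gp1ba, Gp9, Gp5, Itga2b, Itgb3, Pf4, Vwf, Selp and Plek. ATAC-seq, which reads open DNA through the insertion of adapters by a transposase, was run on about 5000 cells per library, sorted as CD48-CD150+LSK (lineage-negative, Sca-1-positive, c-Kit-positive). All cells came from wild-type C57BL/6J mice. The mice had been given tunicamycin at 2 mg per kg (3 libraries) or DMSO, its solvent (3 libraries), into the peritoneum, and the time from injection to sort is not given in the sources used here. Tunicamycin blocks N-linked glycosylation and thereby stresses the endoplasmic reticulum. Peaks of the 6 libraries were merged where they shared at least 1 bp, and a merged region was kept if it lay in or within 50 kb of one of the 10 gene spans on mm10. This gave 147 regions of 82993 in all, 52 inside a gene span and 95 outside. The farthest one kept lay 49.5 kb from Gp5 and the nearest one left out 52.0 kb from Nfe2, each called in 2 libraries. For 67 of the 147 regions the member was the nearest protein-coding gene. For the other 80 another gene lay nearer, so a region is assigned here by distance and not to a gene that it controls.

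Megakaryocytes are the large marrow cells that shed platelets, and part of the HSC pool is known to be biased towards them. Such HSCs can carry platelet-lineage transcripts, among them Vwf, and CD41, the product of Itga2b, is found on some HSCs as well as on megakaryocytes. In megakaryocytes these genes are driven by GATA1 and ETS factors such as FLI1, with NFE2 acting late, during platelet release. The receptors made by the lineage bind collagen-held von Willebrand factor and fibrinogen, and the granules store clotting and adhesion proteins.

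The deposited lists held 44952, 56865 and 47789 peaks on chromosomes 1 to 19, X and Y in tunicamycin replicates 1 to 3, against 62478, 38217 and 28501 in DMSO replicates 1 to 3. The lists do not give read depth, and a region without a call is not thereby shown to be closed. Of 12 HSC marker genes 7, Hlf, Mecom, Procr, Kit, Meis1, Ptprc and Cd34, had a region called in all 6 libraries in the gene or within 1 kb of it. Slamf1, which encodes the sorted CD150, had at most 2 libraries with a call in that window, and no region was called there at Ly6a, which encodes Sca-1. Such a region was present at 4 of the 9 erythroid genes with any region within 50 kb. The same held for 3 of 10 lymphoid genes and for 1 of 10 granulocyte and monocyte genes, Csf1r. The share over all protein-coding genes, with or without a region within 50 kb, was 54.4%. Such a region was present at Cd48 too, although CD48 was absent from the surface of the sorted cells.

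Promoters are shown first because the gene starts differed in their calls: some were called open in every library and others in 1 or 2. RefSeq (GRCm38.p6) gave promoter windows for 7 genes, and Itgb3, Vwf and Nfe2 had none in the table. Each line holds the 250 bases before the transcription start, 5′ to 3′ on the gene's strand. Capitals mark GATA and GGAA on either strand (GATA or TATC, GGAA or TTCC), the core letters of GATA and ETS factor sites, and a run such as GATATC holds GATA on both strands. The windows are chr5:90772185-90772434 (plus strand) for Pf4, chr11:102469884-102470133 (minus) for Itga2b, chr11:70638872-70639121 (plus) for Gp1ba, chr6:87777820-87778069 (plus) for Gp9 and chr11:17008719-17008968 (minus) for Plek, all with the start region called in all 6 libraries. They are chr1:164115014-164115263 (plus) for Selp and chr16:30310782-30311031 (minus) for Gp5, whose start regions were called in 2 libraries and in 1.
Pf4: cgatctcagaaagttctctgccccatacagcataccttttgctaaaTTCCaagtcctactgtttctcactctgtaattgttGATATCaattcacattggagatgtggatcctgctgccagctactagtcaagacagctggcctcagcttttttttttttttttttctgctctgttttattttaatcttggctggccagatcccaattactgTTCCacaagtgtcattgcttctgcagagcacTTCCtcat
Itga2b: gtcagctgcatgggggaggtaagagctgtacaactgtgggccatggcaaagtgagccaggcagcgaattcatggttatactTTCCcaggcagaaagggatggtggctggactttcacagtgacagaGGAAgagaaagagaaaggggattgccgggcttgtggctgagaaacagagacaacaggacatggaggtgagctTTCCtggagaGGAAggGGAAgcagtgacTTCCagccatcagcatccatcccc
Gp1ba: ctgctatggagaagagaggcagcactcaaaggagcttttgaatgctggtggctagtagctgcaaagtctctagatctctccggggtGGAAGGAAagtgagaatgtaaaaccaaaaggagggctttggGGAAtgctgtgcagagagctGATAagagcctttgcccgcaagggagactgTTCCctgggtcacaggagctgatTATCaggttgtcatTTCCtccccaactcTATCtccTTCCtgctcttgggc
Gp9: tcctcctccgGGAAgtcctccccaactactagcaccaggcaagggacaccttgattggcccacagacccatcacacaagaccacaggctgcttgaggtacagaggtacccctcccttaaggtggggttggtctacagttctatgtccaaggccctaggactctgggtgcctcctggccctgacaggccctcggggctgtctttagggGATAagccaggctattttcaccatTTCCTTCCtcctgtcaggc
Plek: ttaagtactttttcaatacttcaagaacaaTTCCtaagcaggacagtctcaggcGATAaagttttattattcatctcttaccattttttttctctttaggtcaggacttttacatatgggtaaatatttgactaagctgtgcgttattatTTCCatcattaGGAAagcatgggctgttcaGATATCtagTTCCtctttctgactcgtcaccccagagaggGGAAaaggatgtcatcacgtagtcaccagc
Selp: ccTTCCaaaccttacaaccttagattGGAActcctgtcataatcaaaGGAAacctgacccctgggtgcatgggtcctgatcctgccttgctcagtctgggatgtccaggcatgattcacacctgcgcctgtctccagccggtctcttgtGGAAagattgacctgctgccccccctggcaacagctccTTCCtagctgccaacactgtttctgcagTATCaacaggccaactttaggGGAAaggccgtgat
Gp5: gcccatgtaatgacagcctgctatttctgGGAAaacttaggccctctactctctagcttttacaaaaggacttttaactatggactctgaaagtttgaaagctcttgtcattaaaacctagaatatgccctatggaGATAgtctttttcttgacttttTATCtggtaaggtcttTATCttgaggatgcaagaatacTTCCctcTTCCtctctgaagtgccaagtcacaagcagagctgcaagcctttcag

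GATA stood in 6 of the 7 windows, Itga2b being the one without, and in 53.6% of all 32851 promoter windows of that length. GGAA stood in 7 of 7, against 93.4% of all windows. AGATAA, a longer GATA site that contains GATA, was found in Gp5 only, where its first matches lay 93 and 77 bases before the start, against 9.99% of all windows. TGTGGT, the core of a RUNX site, was found in Gp9 only (14.0% of all windows), and TGANTCA, the core of AP-1 sites, in Selp only (6.75%). The longer NFE2 and Maf site that contains TGANTCA was in 0 of 7 (0.353%), as were CCGGAAGT, an ETS site that contains GGAA (2.88%), and the CArG box of serum response factor (0.0609%). CANNTG, the E-box, was in 4 of 7, namely Pf4, Itga2b, Selp and Plek, against 66.2%. All motifs were searched on both strands, and a match describes letters in these windows and not binding. The GC content ran from 38.0% in Plek to 57.6% in Gp9, around a median of 52.4% over all windows.

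Peak summits at the open starts lay close to the annotated start in most libraries. At Plek they lay 12, 13 and 7 bases after the start in tunicamycin replicates 1 to 3, against 4, 0 and 5 bases after it in DMSO replicates 1 to 3. At Gp1ba they lay 110, 109 and 25 bases before the start in the tunicamycin libraries, against 41, 68 and 36 bases before it in the DMSO libraries. The GATA matches of that promoter begin 103, 50 and 22 bases before the start. At Itga2b the summits stood farther upstream, 307, 299 and 283 bases before the start in the tunicamycin libraries, against 303, 318 and 194 in the DMSO libraries. All but the summit of DMSO replicate 3 lay beyond the window printed above. At Pf4 they lay inside the gene, 79, 89 and 15 bases after the start in the tunicamycin libraries, against 41, 96 and 94 in the DMSO libraries. Groups overlapped in summit position at Gp1ba, Itga2b, Pf4 and Gp9. At Plek each tunicamycin summit lay farther into the gene than each DMSO summit, the nearest being 7 and 5 bases after the start. How often summits separate by group over all regions was not counted. Over the 46 regions called in all libraries, the summits of the 6 libraries spread over a median of 90.5 bp, against 70.0 bp over all 20810 such regions.

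All 10 genes carried a region called in all 6 libraries in the gene or within 1 kb of it, and 54.4% of 21887 protein-coding genes did. Of the 147 regions, 46 (31.3%) were called in all 6 libraries, against a background of 25.1% of all 82993 regions, and 39 (26.5%) in a single library, against 32.4% of all regions. A further 25 (17.0%, against 10.5% of all regions) were called in 5 libraries. In 18 of these (72.0%, against 78.5% over all regions) the missing library was DMSO replicate 3, which had the shortest list. Of the 39 regions in a single library, 15 (38.5%, against 38.3% over all regions) belonged to DMSO replicate 1, the longest list. The regions called in all libraries had a median width of 764 bp and those called in 1 library a median of 254 bp. The 46 divided into 19 inside a gene span and 27 outside.

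**Figure D1:**
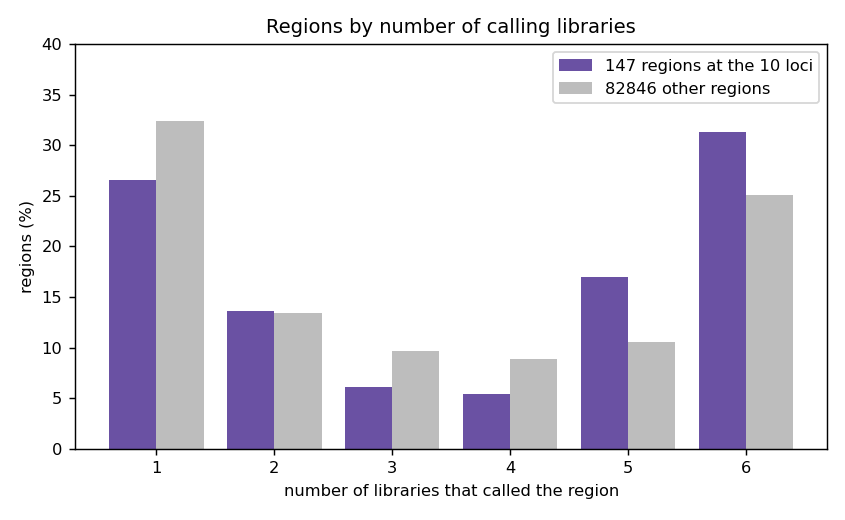
Percent of regions (vertical axis) by the number of libraries, 1 to 6, that called them (horizontal axis), for the 147 regions at the 10 loci and for the 82846 other regions. The bars at the 10 loci stand higher for 5 and 6 libraries (17.0% and 31.3%) and lower for 1 library (26.5%).

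No region at the 10 loci was called in every tunicamycin library and no DMSO library, where 0.683% of all regions were, and none in every DMSO library and no tunicamycin library, where 0.0976% of all regions were. Left out one at a time, DMSO replicate 1 raised the count of tunicamycin regions to 2, tunicamycin replicates 1 and 3 to 1 each, and DMSO replicate 3 raised the count of DMSO regions to 3. Leaving out a library eases separation for any region, and the shares over all regions were not counted for these smaller sets. In bulk cells a change in the number of open cells and a change in openness per cell cannot be told apart. The tunicamycin libraries called 62.6%, 63.3% and 65.3% of the 147 regions, against 79.6%, 55.8% and 40.1% in the DMSO libraries. The 3 tunicamycin libraries were close together, and the DMSO libraries lay on both sides of them, in the order of their list lengths. Over all 82993 regions the shares were 52.6%, 67.2% and 55.7% in the tunicamycin libraries, against 73.6%, 44.5% and 33.3% in the DMSO libraries. The means were 63.7 ± 1.42% after tunicamycin and 58.5 ± 19.9% after DMSO (SD, n = 3 each), a difference of 5.22 percentage points that was smaller than the DMSO spread and than the 8.02 points over all regions. Without DMSO replicate 3 it was −3.97 and without DMSO replicate 1 it was 15.8 percentage points, so its sign turned when the shortest list was left out. The difference over all regions was not computed with these libraries left out, so the turn is not shown to be particular to these loci. All 3 tunicamycin libraries called 71 of the regions (48.3%, against 40.2% of all regions), and all 3 DMSO libraries called 48 (32.7%, against 26.2% of all regions).

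**Figure D2:**
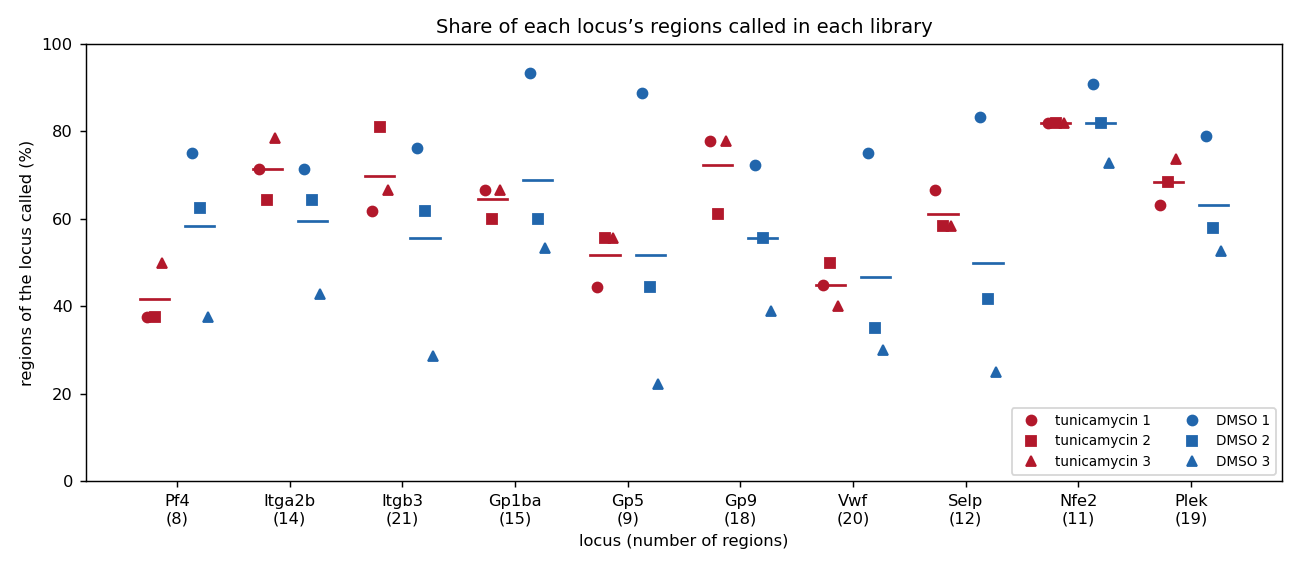
Percent of each locus's regions called (vertical axis) in each library (points), by locus with its number of regions (horizontal axis), with a line at the mean (n = 3), tunicamycin left of DMSO. The DMSO points spread more widely than the tunicamycin points at all 10 loci by SD, as at Itgb3 with 16, 13 and 6 calls of 21 regions, and the groups overlap at each.

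Several regions were 1 call away from separation. In the direction of tunicamycin, 2 had calls in each tunicamycin library and in any 1 DMSO library (1.36%, against 4.76% of all regions). That DMSO library was replicate 1 in both. Another 1 inside Itgb3 and 1 at 44.4 kb from Selp were called in 2 tunicamycin libraries and no DMSO library. In the direction of DMSO, 2 inside Itgb3 and 1 at 22.5 kb from Nfe2 were called in 2 DMSO libraries and no tunicamycin library. How many of all regions had calls in 2 libraries of a group and none of the other was not counted. Of the pair called in all tunicamycin libraries, one lay inside Nfe2, with a fold enrichment over background of 4.09, 3.90 and 3.22 in the tunicamycin libraries, against 3.76 in DMSO replicate 1. The other lay 34.4 kb beyond Selp and nearer to F5, which encodes coagulation factor V, with folds of 5.33, 6.23 and 6.21 in the tunicamycin libraries, against 5.37 in DMSO replicate 1. Both were called in the DMSO library with the longest list and not in the shorter lists. The fold is the authors' value for a peak and is given as a description; its percentile among a library's kept peaks (list percentile, 100 highest) says how strong a peak was within that list, and groups were compared on ranks alone.

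For the 46 regions called in all libraries, each library was also ranked over the same 20810 shared regions, so that list length did not set the rank (shared percentile, 100 highest). limma on normal scores of this rank, with Benjamini-Hochberg adjustment over all 20810 regions, called 0 of 46 higher and 0 of 46 lower at an adjusted p under 0.05, against a background of 0% in each direction. The smallest adjusted p was 0.861 at the loci. At an unadjusted p under 0.05 there were 2 of 46, against 4.35% of all shared regions. The exact permutation test gave 0 adjusted calls and could give none, as its smallest p with 3 against 3 libraries is 0.10. The difference in mean shared percentile, tunicamycin minus DMSO, had a median of 0.21 points at the 46 regions and −0.30 over all shared regions, and it ran from −17.5 to 53.1. It was positive at 24 regions and negative at 22. These p-values measure only the spread between the libraries, which may be technical, since the labels do not say that replicates came from separate animals, and a region missing from 1 list could not enter the ranking.

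**Figure D3:**
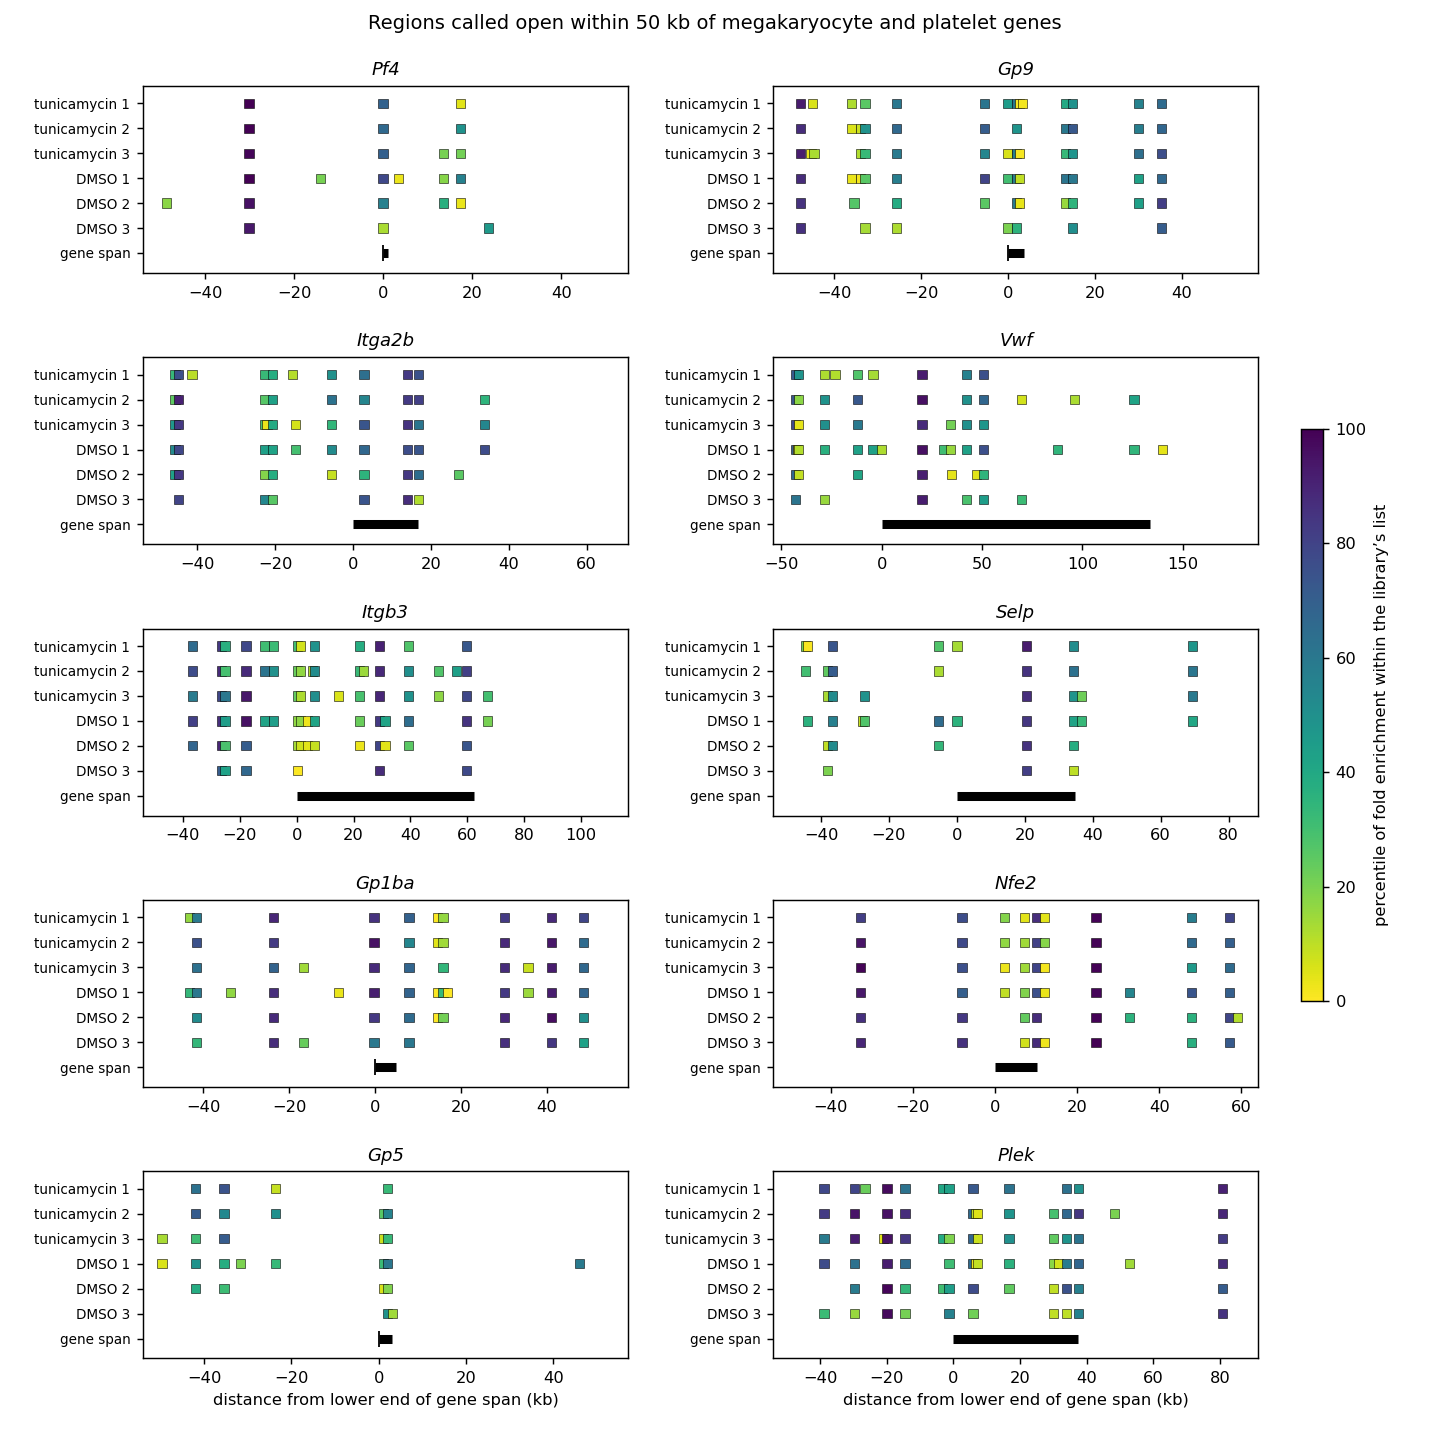
Regions at the 10 loci placed to scale by distance of the midpoint from the lower end of the gene span in kb (horizontal axis), with 1 row per library, tunicamycin above DMSO. A square marks a call, its colour gives the list percentile of the fold, and the bar is the gene span. No column has squares in all tunicamycin rows and none in the DMSO rows, and DMSO replicate 3 has the fewest squares overall.

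Nfe2, the regulator of the set, encodes the larger subunit of a factor that drives platelet release. Its locus (chromosome 15, 103248212 to 103258403) held 11 regions, 7 of them called in all 6 libraries. Each tunicamycin library called 9, against 10, 9 and 8 in the DMSO libraries. The region over the upper end of the gene (103257940 to 103258798) had folds of 9.29, 8.40 and 8.29 in the tunicamycin libraries, against 8.49, 9.02 and 8.57 in the DMSO libraries. The groups overlapped fully, and the mean shared percentile was 60.2 ± 10.5 after tunicamycin and 67.2 ± 22.7 after DMSO (SD, n = 3 each). A region 14.0 kb away and nearer to Copz1, a gene of vesicle coat protein, was stronger: its list percentile was 99.4, 99.2 and 99.4 in the tunicamycin libraries, against 98.5, 99.5 and 99.8 in the DMSO libraries. Every library placed that region among its strongest peaks.

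Gp1ba, Gp9 and Gp5 encode subunits of the platelet receptor for von Willebrand factor, GPIb-IX-V, and their starts differed in the number of libraries with a call. The Gp1ba locus (chromosome 11, 70639102 to 70643986) lies in a gene-dense stretch with 10 other protein-coding genes in its window, and it held 15 regions, 7 in all 6 libraries. Its start region (70638445 to 70639276) had folds of 9.07, 11.8 and 9.73 in the tunicamycin libraries, against 11.5, 8.42 and 5.76 in the DMSO libraries. DMSO replicate 3 was the lowest and the groups overlapped, with mean shared percentiles of 77.0 ± 9.32 after tunicamycin and 64.8 ± 15.7 after DMSO (SD, n = 3 each). Another region, 41.3 kb away and nearer to Mink1, had shared percentiles of 28.0, 42.3 and 30.8 in the tunicamycin libraries, against 20.9, 27.5 and 20.8 in the DMSO libraries. The lowest tunicamycin value stood just above the highest DMSO value there, and the adjusted p from limma was 0.996. On list percentile, 59.3, 75.2 and 63.0 in the tunicamycin libraries, against 60.2, 52.2 and 33.8 in the DMSO libraries, the groups overlapped.

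Gp9 (chromosome 6, 87776131 to 87779786) had 18 regions, with 5 shared by all 6 libraries. The region over the lower end of the gene span (87775876 to 87776251) was called in 4 libraries, 2 of each group. The region at the start used for the promoter window lay at 87777809 to 87778447. Its folds were 6.19, 5.31 and 6.12 in the tunicamycin libraries, against 6.66, 6.01 and 4.65 in the DMSO libraries. The groups overlapped, and the mean shared percentile was 22.3 ± 9.18 after tunicamycin and 25.7 ± 8.11 after DMSO (SD, n = 3 each). A region 25.3 kb away and nearer to Efcc1 had shared percentiles of 29.3, 28.9 and 26.3 in the tunicamycin libraries, against 19.0, 16.9 and 6.34 in the DMSO libraries. All tunicamycin libraries lay above all DMSO libraries in shared rank at that region, with an adjusted p of 0.996 in limma. Its folds were 6.16, 6.67 and 6.19 in the tunicamycin libraries, against 6.60, 4.95 and 3.85 in the DMSO libraries, where DMSO replicate 1 fell among the tunicamycin values.

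Gp5 (chromosome 16, 30307685 to 30310781) was the least covered of the receptor genes, with 9 regions and 1 in all 6 libraries. That region, inside the gene (30309466 to 30309985), had folds of 4.65, 5.83 and 4.74 in the tunicamycin libraries, against 6.78, 4.12 and 5.16 in the DMSO libraries. It was weak in both groups, which overlapped: the mean shared percentile was 11.8 ± 5.27 after tunicamycin and 20.5 ± 14.4 after DMSO (SD, n = 3 each). The start itself was called in DMSO replicate 3 alone, at a list percentile of 14.2.

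Itga2b and Itgb3 encode the chains of the fibrinogen receptor, αIIbβ3. The Itga2b locus (chromosome 11, 102453297 to 102469883) held 14 regions, and all 3 inside or overlapping the gene were called in all 6 libraries. The strongest of these (102466907 to 102467656) lay within the gene near its start, with folds of 8.71, 8.76 and 9.19 in the tunicamycin libraries, against 8.66, 8.40 and 8.42 in the DMSO libraries. Its mean shared percentile was 63.4 ± 5.29 after tunicamycin and 65.3 ± 19.8 after DMSO (SD, n = 3 each). The start region (102469772 to 102470450) had shared percentiles of 49.8, 53.4 and 28.8 in the tunicamycin libraries, against 38.1, 41.1 and 5.99 in the DMSO libraries. DMSO replicate 3 was far below the rest there, and the groups overlapped.

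Itgb3 (chromosome 11, 104608000 to 104670476), whose β3 chain also pairs with the αV chain in other cells, held the most regions of the 10 loci, 21, of which 14 were inside the gene and 6 were called in all 6 libraries. Its window is among the longer ones. Per 100 kb it held 12.9 regions, fewer than Gp9 (17.4), Gp1ba (14.3) and Plek (13.8) and more than the rest. Calls numbered 13, 17 and 14 in the tunicamycin libraries, against 16, 13 and 6 in the DMSO libraries. A region inside the gene (104636864 to 104637668) had the highest mean list percentile within it, with folds of 10.1, 9.82 and 9.94 in the tunicamycin libraries, against 9.68, 7.85 and 8.56 in the DMSO libraries. The shared percentiles, 80.5, 69.9 and 75.7 in the tunicamycin libraries, against 56.1, 63.2 and 83.2 in the DMSO libraries, overlapped. The region at the lower end of the gene (104607521 to 104608872) was 1352 bp wide but weak: its shared percentile was 7.79, 2.85 and 5.24 in the tunicamycin libraries, against 1.97, 4.00 and 0.204 in the DMSO libraries. It was called in every library and stood near the bottom of the ranking in each.

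**Figure D4:**
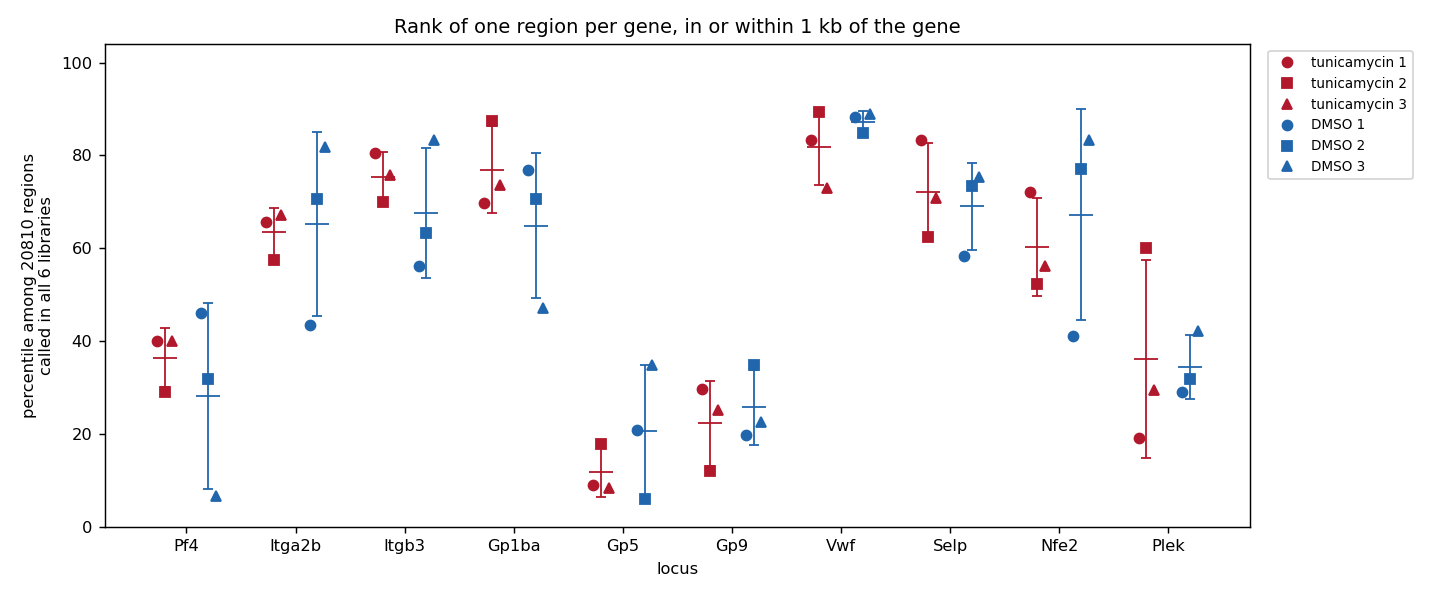
Percentile among the 20810 regions called in all 6 libraries (vertical axis) of 1 region in or within 1 kb of each gene, by library (points), with mean and SD (n = 3), tunicamycin left of DMSO. The groups overlap at all 10 genes, with Vwf the highest (81.9 after tunicamycin and 87.3 after DMSO) and Gp5 the lowest.

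Pf4, Vwf and Selp encode proteins of the platelet alpha granule. Pf4 is a small CXC chemokine gene (chromosome 5, 90772435 to 90773383) that is also widely used to drive Cre in megakaryocytes, and its window held 8 regions, 2 of them called in all 6 libraries. Its start region (90771866 to 90772796) had folds of 6.88, 6.68 and 7.14 in the tunicamycin libraries, against 8.88, 5.85 and 3.86 in the DMSO libraries. The DMSO libraries spanned the tunicamycin ones, and the mean shared percentile was 36.4 ± 6.36 after tunicamycin and 28.2 ± 20.1 after DMSO (SD, n = 3 each). The stronger shared region lay 29.9 kb away (90741969 to 90742570), nearer to Cxcl5, another CXC chemokine gene. Its list percentile was 99.8, 99.8 and 98.5 in the tunicamycin libraries, against 99.7, 95.6 and 93.7 in the DMSO libraries, so that every library held it near the top of its list.

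Vwf, which encodes von Willebrand factor and marks platelet-biased HSCs, had calls in all libraries within the gene and a call at its lower end in 1 library. The gene (chromosome 6, 125552948 to 125686679) had 20 regions in its window, 12 of them inside it, and 3 called in all 6 libraries. The region at 125572382 to 125573596 was the highest ranked of the 10 regions chosen by gene, with folds of 10.5, 12.1 and 9.67 in the tunicamycin libraries, against 13.0, 9.90 and 9.40 in the DMSO libraries. Its shared percentiles were 83.4, 89.3 and 72.9 in the tunicamycin libraries, against 88.2, 84.7 and 88.9 in the DMSO libraries. The groups overlapped, with means of 81.9 ± 8.30 after tunicamycin and 87.3 ± 2.26 after DMSO (SD, n = 3 each). The region over the lower gene end (125552854 to 125553053) was called in DMSO replicate 1 alone, with a fold of 3.95. A second shared region inside the gene (125603254 to 125604321) was weaker, with shared percentiles of 51.3, 30.8 and 16.3 in the tunicamycin libraries, against 41.1, 14.1 and 30.6 in the DMSO libraries, again overlapping.

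Selp encodes P-selectin, the adhesion receptor that activated platelets and endothelium bring to their surface. Its locus (chromosome 1, 164115264 to 164150026) held 12 regions and 2 called in all 6 libraries, both inside the gene. The stronger (164135233 to 164136325) had folds of 10.5, 9.19 and 9.47 in the tunicamycin libraries, against 9.85, 8.67 and 7.71 in the DMSO libraries. Its mean shared percentile was 72.2 ± 10.6 after tunicamycin and 69.1 ± 9.37 after DMSO (SD, n = 3 each), with overlap. The other (164149125 to 164149925), near the distal end, had shared percentiles of 20.7, 24.9 and 17.1 in the tunicamycin libraries, against 8.58, 16.4 and 4.76 in the DMSO libraries. Each tunicamycin value exceeded each DMSO value, by less than 1 percentile point between the nearest libraries, and the adjusted p from limma was 0.996. The start region was called in tunicamycin replicate 1, with a fold of 3.85, and in DMSO replicate 1, with a fold of 5.06.

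Plek, which encodes pleckstrin, a protein kinase C substrate of platelets and leukocytes, was the locus with the largest differences in rank. The locus (chromosome 11, 16971206 to 17008718) held 19 regions and 7 called in all 6 libraries. The start region (17008440 to 17008901) had shared percentiles of 19.1, 60.1 and 29.4 in the tunicamycin libraries, against 29.1, 31.8 and 42.2 in the DMSO libraries. Tunicamycin replicate 2 was the highest and replicate 1 the lowest, so the DMSO values fell between them.

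A region 29.4 kb beyond the distal end of Plek (16941189 to 16941803), nearer to Fbxo48, had the largest difference at the 10 loci, and its difference in mean shared percentile ranked second of all 20810 shared regions. Its folds were 8.06, 11.6 and 10.6 in the tunicamycin libraries, against 7.05, 5.98 and 3.94 in the DMSO libraries. The shared percentiles were 57.4, 85.8 and 82.2 in the tunicamycin libraries, against 23.9, 34.2 and 8.02 in the DMSO libraries. Every tunicamycin library ranked above every DMSO library. The means were 75.1 ± 15.4 after tunicamycin and 22.1 ± 13.2 after DMSO (SD, n = 3 each), and the rank score differed by 1.57 (SE 0.35), with an unadjusted p of 0.000414 and an adjusted p of 0.861 in limma and an exact permutation p of 0.10. It therefore did not pass the threshold over all regions, and with each library left out in turn the score difference ran from 1.28 to 1.83.

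A second region lay 14.3 kb beyond the same end (16956504 to 16956894), also nearer to Fbxo48 than to Plek. Its folds were 6.28, 9.59 and 8.99 in the tunicamycin libraries, against 7.27, 4.72 and 4.17 in the DMSO libraries. Its shared percentiles were 31.4, 67.3 and 64.9 in the tunicamycin libraries, against 26.3, 13.6 and 11.8 in the DMSO libraries. Tunicamycin replicate 1 lay close to DMSO replicate 1, above it in shared rank and below it in list percentile (62.3 against 65.2), and the other tunicamycin libraries stood well above, giving a mean difference of 37.3 points, with an unadjusted p of 0.00531 and an adjusted p of 0.996 in limma. Between these another region (16950813 to 16951796), again nearer to Fbxo48, was strong in both groups. Its shared percentiles were 93.3, 88.1 and 88.5 in the tunicamycin libraries, against 77.5, 97.8 and 96.3 in the DMSO libraries. The outer pair thus ranked higher in the tunicamycin libraries and the one between them differed by −0.59 points with overlap.

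**Figure D5:**
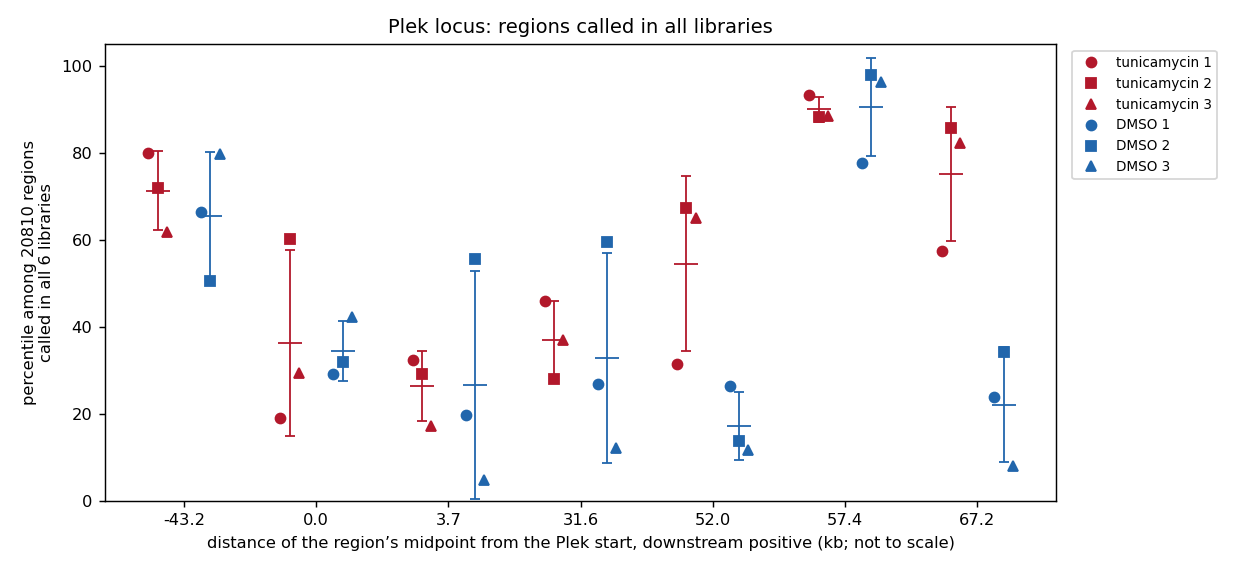
Percentile among the 20810 shared regions (vertical axis) of the 7 Plek regions called in all 6 libraries, ordered by distance of the midpoint from the Plek start in kb (horizontal axis, not to scale), by library, with mean and SD (n = 3), tunicamycin left of DMSO. The groups separate at 2 regions beyond the distal end, with means of 75.1 and 22.1 at the farther one.

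In all, 5 of the 46 shared regions had every tunicamycin rank above every DMSO rank, which is 10.9% against a background of 4.66%, and 0 had the reverse, against 4.55%. They comprised the outer pair at Plek and 1 region each at Gp9, Selp and Gp1ba. By construction the lowest library at such a region is a DMSO library, and at all 5 it was DMSO replicate 3, the shortest list. That library was lowest at 26.1% of the 46 and 21.6% of all shared regions, against 30.4% and 21.7% for DMSO replicate 1. Without DMSO replicate 3 the rank score difference was 1.28 and 0.98 at the outer pair (1.57 and 1.09 with it), 0.34 at Gp9 (0.54 with it), 0.36 at Selp (0.52 with it) and 0.28 at Gp1ba (0.32 with it). The median shared percentile of the 46 regions was 50.6, 50.0 and 47.7 in the tunicamycin libraries, against 36.6, 50.3 and 48.0 in the DMSO libraries, so DMSO replicate 1 was the library that ranked the set lowest.

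A wider list of 51 megakaryocyte and platelet genes, among them GATA, ETS and RUNX factors, platelet agonist receptors, granule proteins and cytoskeletal genes, was set beside the 10 loci. Some regions were counted in both, as F5 and Cd9 of the wider list lie near Selp and Vwf. In the gene or within 1 kb, 30 of the 49 with any region within 50 kb had a region called in all 6 libraries. The share was 54.4% of all protein-coding genes, with or without a region within 50 kb. Of 684 regions within 50 kb, 213 (31.1%, against 25.1% of all regions) were called in all. limma called 0 of the 213 higher and 0 lower after adjustment, with 8 at an unadjusted p under 0.05 (4.35% of all shared regions). Groups did not overlap at 10 higher and 11 lower regions, where the background was 4.66% and 4.55%. Regions in every tunicamycin library and no DMSO library numbered 6 of 684 (0.877%), near the background of 0.683%, and there were 0 of the reverse. At the 10 loci they numbered 0 of 147. The difference between the lists was not tested.

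Of those 6 regions, 2 lay at Alox12, which encodes the platelet 12-lipoxygenase. One was inside the gene (chromosome 11, 70253727 to 70254196), with folds of 3.66, 3.59 and 5.19 in the tunicamycin libraries, and the other 1.27 kb from it, with folds of 3.06, 3.16 and 2.89. Another was inside Myh9, the non-muscle myosin heavy chain of platelets (chromosome 15, 77830728 to 77831080), with folds of 3.95, 3.41 and 3.88 in the tunicamycin libraries. The list percentiles of these 3 ran as low as 0.870 and as high as 41.6, so each lay below the middle of its library's list. The rest lay 12.8 kb from Mpig6b, an inhibitory platelet receptor gene, inside Etv6, an ETS repressor gene, and 27.2 kb from Fli1. At Fli1 the folds were 4.74, 7.47 and 5.56, and at 73.7 the list percentile in tunicamycin replicate 2 was the highest among the 6 regions.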

How the data were processed

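ATAC-seq peak lists of 6 libraries, 1 per library and so not called on pooled samples, were used. Per the submitters' processing notes, Trim Galore 0.4.4, Bowtie2 2.2.9, Picard, MACS2, featureCounts and the build mm10 were used, with no roles or settings given. The authors deposited, peak by peak, the fold enrichment as a ratio over background, −log10 of the p-value, −log10 of the q-value and a score for display. Read filters and any shift of read ends for the transposase are not stated in these sources. Replicates with the same number did not deviate together and were not paired.

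Lists were limited to chromosomes 1 to 19, X and Y, which left out 109 to 138 peaks per library, and merged at 1 bp overlap. Gene spans and promoter windows came from RefSeq tables on GRCm38.p6, which is mm10. In a region the highest peak of a library stood for it. limma 3.58.1 (R 4.3.3) compared normal scores of ranks, two-sided, and was tested on simulated data. Python 3.11.15, pandas 2.3.3 and SciPy 1.17.1 did the rest. In each locus the region in or within 1 kb of the gene with the most calls, then the highest mean list percentile, was described in full, then regions with separated calls or with groups that did not overlap in rank. Other regions at the 10 loci were chosen after their values were seen. The members, lists and tests were chosen with earlier results of these data known.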

Additional observations from a re-analysis of the deposited data

How the results depend on the processing

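Depth was unknown, so the alternatives changed thresholds, lengths and windows instead. The number of regions called in all libraries, 46, became 28 with calls that cover at least 50% of a region, 21 within 10 kb of a gene, 19 within 1 kb and 19 where the member was the nearest gene, each by construction a smaller set. With each library left out in turn it ran from 46 to 64, the difference in percent called from −3.97 to 15.8 percentage points, regions called in every tunicamycin library and no DMSO library from 0 to 2, and the reverse from 0 to 3. With 50% cover there were 2 regions in every tunicamycin library and no DMSO library, near Gp9 and Vwf. Without DMSO replicate 1 there were 2, at Selp and Nfe2, without tunicamycin replicate 1 there was 1, at Itgb3, without tunicamycin replicate 3 there was 1, at Selp, and without DMSO replicate 3 there were 3 of the reverse, at Itgb3 and Nfe2. The shares of separated regions over all regions under these settings, 50% cover included, were not counted. With a q-value of at most 1e-05, 39 regions were called in all libraries and with lists of one length 40. No region at the 10 loci passed an adjusted p of 0.05 under any rank alternative (log2 folds, −log10 p, mean of several peaks, stricter peaks, each library left out), and with the replicate number as a block the counts were 0 higher and 0 lower. With stricter peaks the outer pair at Plek and the regions at Gp9 and Selp without overlap were no longer called in all libraries and were not tested. The exact permutation test could not pass that threshold with 3 against 3 libraries. Deviations of the rank scores from their group mean were correlated between tunicamycin and DMSO libraries. The correlations were −0.085, −0.014 and 0.030 for same-numbered libraries and ran from −0.087 to 0.101 for the others. For 15 regions, those described in full and those whose groups did not overlap in rank, 128 of 144 alternative rank scores, the block left out, kept their direction and 16 did not, none past the threshold.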
